A study of Mus musculus with 16 samples.

Results

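The 9 genes described here encode complement proteins and complement receptors other than the C1q chains: the components C2, C3, C4b and C6, complement factor B (Cfb), properdin (Cfp), and the receptors C3ar1, C5ar1 and Vsig4. They were chosen by name. A probe took its gene symbol from the RefSeq accession in the scanner files, or from the symbol there where the accession was not found. They are 9 of the 24523 symbols on the array and were read by 10 probes, C3 by 2 of them and every other gene by 1. All 9 passed the filter on dim probes and were among the 22116 genes or unnamed features tested.

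RNA was measured on 16 one-colour Agilent mouse arrays, 4 for each of 4 cell populations sorted from untreated C57BL/6 mice. The heart populations (CCR2+ Mac, MHC-IIHi Mac and MHC-IIlo Mac) came from minced and digested tissue, were positive for CD45, MerTK and CD64, and lacked Ly6c. The CCR2+ Mac gate took cells high for CCR2 and for MHC class II. Both other heart gates excluded CCR2: MHC-IIHi Mac cells were high for MHC class II and low for CD11c, and MHC-IIlo Mac cells were low for MHC class II and lacked CD11c. The fourth population, Ly6cHi Mono, was the Ly6c-high monocyte of blood. Each sample gave 1 ng of RNA for Cy5 labelling. Whether replicates are separate mice is not stated, so p-values measure the spread between these samples, which may be technical. Age and sex of the mice are not given in the sources used here.

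Complement is a cascade of plasma proteins that tags surfaces for uptake, releases peptides that attract and activate leukocytes, and can punch pores into membranes. The classical and lectin pathways cut C4 and C2 to build a C3-cleaving enzyme, and the alternative pathway builds another from C3 and factor B, which properdin stabilises. C3 cleavage exposes fragments that tissue macrophages bind through receptors such as Vsig4, while the released C3a and C5a peptides act on C3ar1 and C5ar1, and C6 takes part in the terminal pore. The liver makes most circulating complement, and macrophages are among the other cells known to make components locally.

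The share of spots well above background ran from 52.8% to 69.3% over the arrays, with no saturated spot. Correlations between arrays of a group ran from 0.915 to 0.981 across probes. Of the genes behind the gates, Ccr2, H2-Ab1 and Mertk ran in the direction of the labels. Ccr2 was higher in CCR2+ Mac than in MHC-IIHi Mac by 3.86 on the log2 scale (limma adjusted p = 2.12e-05). H2-Ab1 was higher in MHC-IIHi Mac than in MHC-IIlo Mac by 1.82 (adjusted p = 0.0173). Mertk was well above background on all 12 macrophage arrays and on 0 of 4 monocyte arrays. Fcgr1, which encodes CD64, had means of 2.95 to 3.13 in the macrophage groups and 2.82 in Ly6cHi Mono. Itgax (CD11c) had means of 1.51 in CCR2+ Mac, -0.34 in MHC-IIHi Mac and -2.32 in MHC-IIlo Mac. It was well above background on 4 of 4 MHC-IIlo Mac arrays. The log2 difference of Ly6c1 from monocytes was -3.12 in CCR2+ Mac (adjusted p = 1.34e-06), -4.44 in MHC-IIHi Mac (adjusted p = 1.8e-08) and -4.32 in MHC-IIlo Mac (adjusted p = 2.22e-08). Ly6c1 was well above background on all 12 macrophage arrays, and higher in CCR2+ Mac than in MHC-IIHi Mac by 1.32 (adjusted p = 0.0311). Genes of heart muscle were also measured in the sorted macrophages. The summed level of 8 cardiomyocyte genes, as log2 of the sum of signals scaled to the array's 75th percentile, was 3.83 to 4.71 over the 3 macrophage groups and 1.16 to 1.46 in Ly6cHi Mono. For 8 fibroblast genes the summed level was 2.13 to 3.45 in macrophages and 0.41 to 0.60 in monocytes.

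To show what was read on the array, the probes of 4 members are given, 5′ to 3′, as the scanner files list them; these have no stop codon in at least 1 reading frame. C3 is the member that ran opposite to the others, C6 one of the most divided between macrophages, and Cfb and Cfp the alternative pathway pair, with the smallest differences from monocytes in both CCR2-negative groups. Each probe is 60 bases long, and the C3 sequence is that of the probe used in the comparisons.
C3: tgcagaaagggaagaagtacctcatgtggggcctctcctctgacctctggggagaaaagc
C6: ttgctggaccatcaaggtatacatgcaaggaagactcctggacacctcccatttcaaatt
Cfb: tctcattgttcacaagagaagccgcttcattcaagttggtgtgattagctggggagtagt
Cfp: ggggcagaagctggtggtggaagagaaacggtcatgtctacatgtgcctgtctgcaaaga
C4b has a near-identical copy, C4a, whose symbol no probe carried. The C4b probe was not compared with the C4a sequence, so values under the name C4b may include RNA of C4a.

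Promoter sequences from RefSeq (build GRCm38.p6) were at hand for 6 of the 9 members. The 250 bases before the start site are shown for 4 members whose patterns differ: Vsig4 and C6, both lower in CCR2+ Mac, C3ar1, even across macrophages, and C3, highest in monocytes. Capitals mark matches, on either strand, to 6 short promoter motifs. GAGGAA is a purine box bound by the myeloid factor PU.1. C/EBP factors bind TTGCNNAA, and AP-1 binds TGANTCA. The sequence GAAANNGAA is part of the sites of interferon regulatory factors, and GGGANTTTC is part of a site of NF-kB. The TATA box was searched as TATAAA. The motif definitions were searched separately and their matches here do not overlap one another.
Vsig4 (chrX:96293439-96293688, minus strand): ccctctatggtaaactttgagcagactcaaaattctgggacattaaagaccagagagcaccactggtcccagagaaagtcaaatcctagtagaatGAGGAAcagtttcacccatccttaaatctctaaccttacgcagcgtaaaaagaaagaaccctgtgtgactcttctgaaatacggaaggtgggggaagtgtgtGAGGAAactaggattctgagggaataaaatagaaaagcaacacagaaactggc
C6 (chr15:4726960-4727209, plus strand): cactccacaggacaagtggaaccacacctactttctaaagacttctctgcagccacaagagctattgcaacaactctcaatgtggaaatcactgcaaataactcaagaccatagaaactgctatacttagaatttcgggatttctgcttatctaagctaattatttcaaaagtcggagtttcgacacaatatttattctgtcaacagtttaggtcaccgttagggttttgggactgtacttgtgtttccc
C3ar1 (chr6:122856158-122856407, minus strand): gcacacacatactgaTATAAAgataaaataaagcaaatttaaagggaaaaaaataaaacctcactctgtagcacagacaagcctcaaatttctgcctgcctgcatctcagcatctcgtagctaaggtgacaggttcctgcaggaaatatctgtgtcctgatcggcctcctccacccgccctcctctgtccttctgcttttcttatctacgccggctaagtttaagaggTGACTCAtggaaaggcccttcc
C3 (chr17:57228137-57228386, minus strand): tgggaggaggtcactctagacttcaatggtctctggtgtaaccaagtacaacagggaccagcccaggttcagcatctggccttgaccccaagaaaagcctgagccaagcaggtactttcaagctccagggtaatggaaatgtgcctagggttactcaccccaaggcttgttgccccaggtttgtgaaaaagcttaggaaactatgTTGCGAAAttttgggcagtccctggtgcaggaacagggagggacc
The Vsig4 window holds GAGGAA 2 times, starting 53 and 155 bases before the start site, and 23.3% of 32851 promoter windows of this length hold it at least once. C3 holds TTGCNNAA 45 bases before the start, which 9.56% of windows hold. C3ar1 holds TGANTCA 22 bases before the start and TATAAA 235 bases before it, and these occur in 6.75% and 12.4% of windows. C5ar1, not printed, holds GAAANNGAA 66 bases before the start, as do 7.13% of windows somewhere, and none of the 6 members' windows holds GGGANTTTC (0.941% of windows). The C6 and Cfp windows matched none of the 6 motifs, which says only that these letters are not there. C2 and Cfb are adjacent protein-coding genes in the RefSeq annotation of chromosome 17.

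The first comparison was between the CCR2+ heart macrophages and each of the CCR2-negative groups. C2, C4b, C6 and Vsig4 were lower in CCR2+ Mac than in MHC-IIHi Mac, by 2.34 to 3.92 on the log2 scale, and none of the 9 members passed as higher. These 4 lower members stand beside a background of 0.624% of all features called lower, 0.638% called higher and 1.26% in all, at an adjusted p under 0.05 (limma, Benjamini-Hochberg over all features). The same 4 members were lower in CCR2+ Mac than in MHC-IIlo Mac, by 2.52 to 3.95, against a background of 1.29% lower, 1.52% higher and 2.81% in all. The median member difference was -0.40 against MHC-IIHi Mac and -0.79 against MHC-IIlo Mac, where the median over all features was -0.03 and -0.04. The arrays of the groups did not overlap for 4 members against MHC-IIHi Mac (7.83% of all features) and for 6 against MHC-IIlo Mac (8.27%). Added in the second were C3, which was higher in CCR2+ Mac, and Cfp, which was lower. Both comparisons use the same CCR2+ Mac arrays. C3, Cfb, Cfp, C3ar1 and C5ar1 did not pass in either. Between MHC-IIHi Mac and MHC-IIlo Mac 0 of 9 members passed, with 0.0723% of all features called (0.0543% higher, 0.0181% lower), and arrays did not overlap for 2 (2.34% of features). In that comparison 1 member, Vsig4, had an unadjusted p of 0.0039 and Cfp one of 0.0343 (3.96% of features had one under 0.05), and with the slide as a block the count stayed at 0. In bulk RNA of a sorted group, fewer cells of a type and less RNA per cell cannot be told apart.

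**Figure D1:**
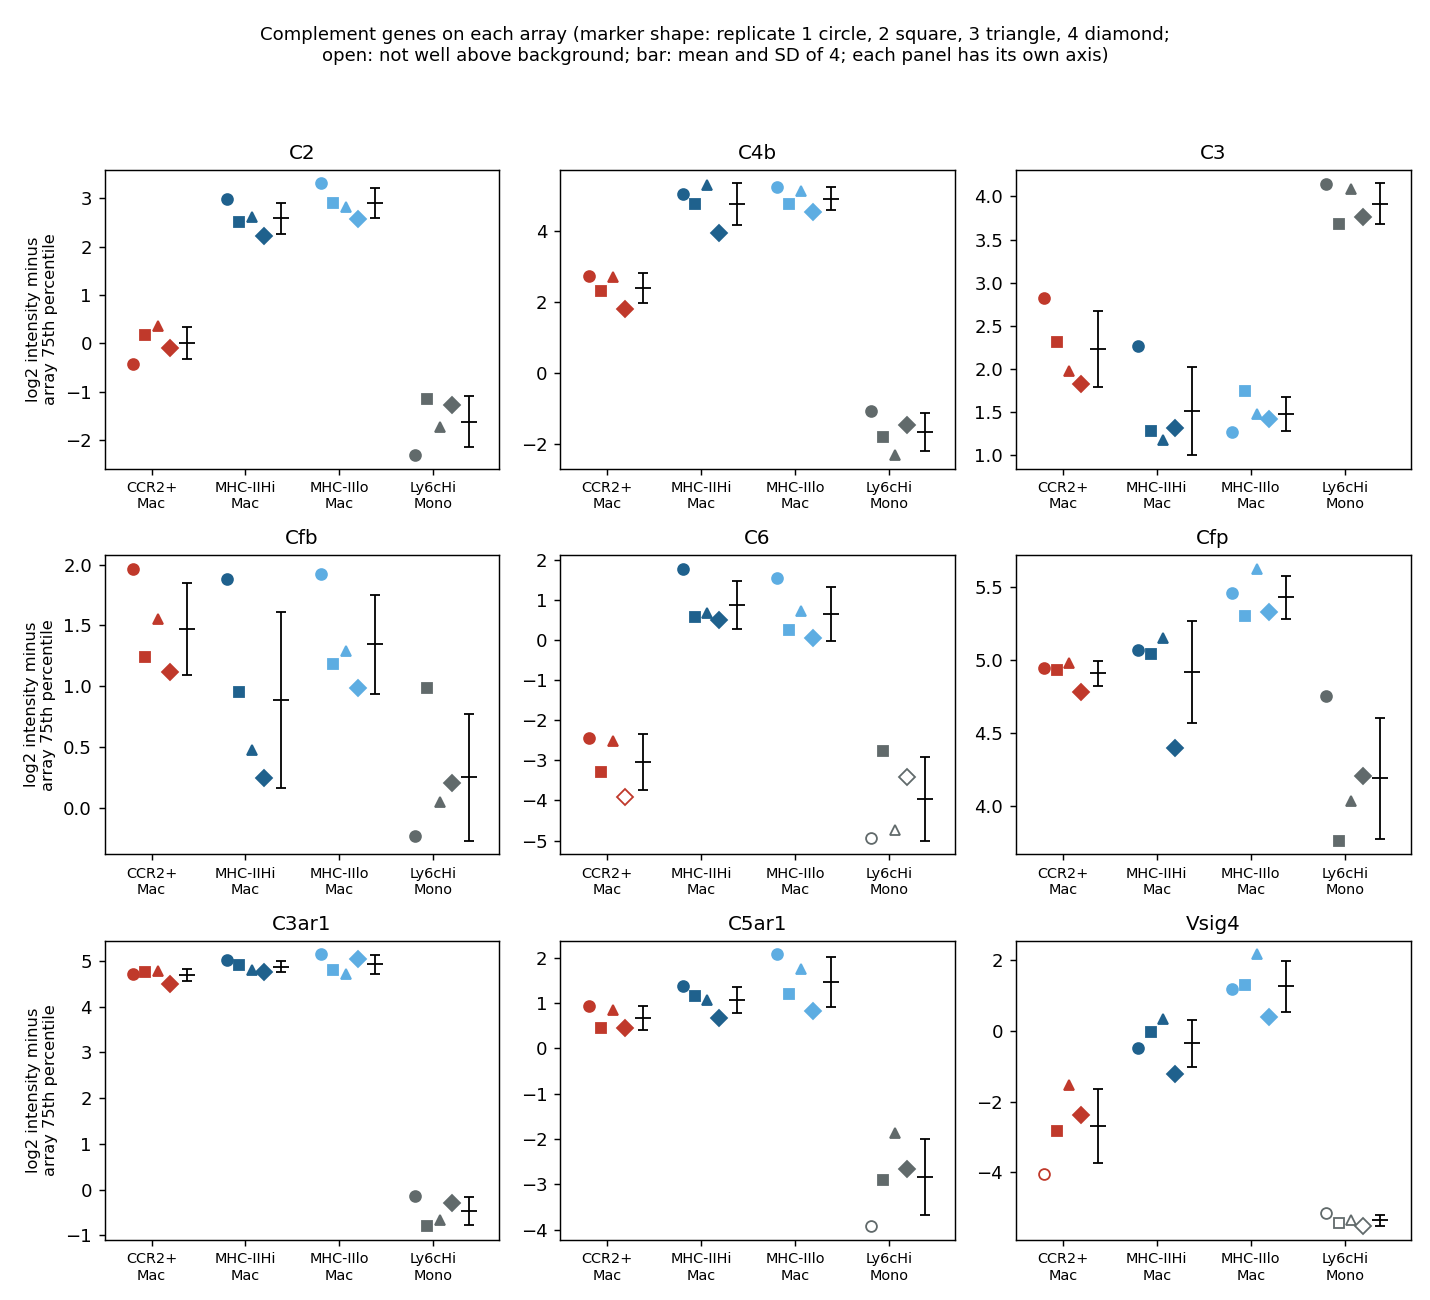
Level of each of the 9 genes on the 16 arrays, as log2 intensity minus the array's 75th percentile, by group; marker shapes give the replicate, open markers a spot not well above background, and bars the mean and SD of 4 arrays. C2, C4b, C6 and Vsig4 are lower in CCR2+ Mac than in both other macrophage groups without overlap, C3ar1 lies between 4.49 and 5.14 on all 12 macrophage arrays, and C3 is highest in Ly6cHi Mono.

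The classical pathway genes C2 and C4b had the same order of groups. C2 encodes the protease that joins C4b in the classical C3 convertase. Its levels, as log2 intensity minus the array's 75th percentile, were -0.42, 0.16, 0.35 and -0.09 in replicates 1 to 4 of CCR2+ Mac and -2.31, -1.15, -1.73 and -1.28 in Ly6cHi Mono. They were 2.99, 2.51, 2.61 and 2.22 in MHC-IIHi Mac and 3.31, 2.90, 2.82 and 2.56 in MHC-IIlo Mac. All 8 arrays of the CCR2-negative groups lay above all CCR2+ Mac arrays, which lay above all monocyte arrays, and the CCR2-negative groups overlapped each other. C2 was 5.99-fold lower in CCR2+ Mac than in MHC-IIHi Mac (log2 difference -2.58, SE 0.27, adjusted p = 0.000126) and 7.44-fold lower than in MHC-IIlo Mac (-2.90, SE 0.27, adjusted p = 1.88e-05). Within a slide the difference ran from -3.41 to -2.26 and from -3.73 to -2.47, largest in both on slide 1. Against monocytes C2 was higher by 1.62 in CCR2+ Mac (adjusted p = 0.000495), 4.20 in MHC-IIHi Mac (adjusted p = 2.03e-08) and 4.52 in MHC-IIlo Mac (adjusted p = 8.62e-09), each with SE 0.27.

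C4b is the mouse gene for C4, the thioester protein whose larger fragment attaches to surfaces and anchors the convertase. It stood at 2.73, 2.31, 2.71 and 1.81 in CCR2+ Mac and at -1.08, -1.81, -2.31 and -1.46 in Ly6cHi Mono. The values were 5.04, 4.77, 5.28 and 3.94 in MHC-IIHi Mac and 5.23, 4.74, 5.12 and 4.53 in MHC-IIlo Mac. Monocytes were lowest, CCR2+ Mac intermediate, and both CCR2-negative groups highest and overlapping; replicate 4 was the lowest array of each macrophage group. The log2 difference of CCR2+ Mac was -2.37 from MHC-IIHi Mac (SE 0.33, 5.16-fold, adjusted p = 0.00143) and -2.52 from MHC-IIlo Mac (SE 0.33, 5.72-fold, adjusted p = 0.000358). These differences varied little between slides, from -2.57 to -2.13 and from -2.72 to -2.42. C4b exceeded its monocyte level by 4.05 in CCR2+ Mac (adjusted p = 3.31e-07), 6.42 in MHC-IIHi Mac (adjusted p = 1.51e-09) and 6.57 in MHC-IIlo Mac (adjusted p = 1.02e-09). The fibroblast gene sum, given above, was also higher in macrophages than in monocytes, and its part in the C4b difference was not tested.

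C3, the protein on which all pathways converge, was the 1 member higher in monocytes than in every macrophage group. The probe with 1 spot per array, used in the comparisons, read 2.82, 2.31, 1.97 and 1.83 in CCR2+ Mac and 4.15, 3.68, 4.09 and 3.76 in Ly6cHi Mono. It read 2.27, 1.28, 1.17 and 1.32 in MHC-IIHi Mac and 1.26, 1.74, 1.47 and 1.42 in MHC-IIlo Mac. No macrophage array reached the monocyte range. C3 was 3.21-fold lower than in monocytes in CCR2+ Mac (log2 difference -1.68, SE 0.27, adjusted p = 0.000292), 5.31-fold lower in MHC-IIHi Mac (-2.41, adjusted p = 7.15e-06) and 5.44-fold lower in MHC-IIlo Mac (-2.44, adjusted p = 5.69e-06). Among macrophages CCR2+ Mac was above MHC-IIHi Mac by 0.72 (adjusted p = 0.306) and above MHC-IIlo Mac by 0.76 (adjusted p = 0.203), higher on 4 of 4 slides in both, but neither passed. The CCR2+ Mac arrays overlapped those of MHC-IIHi Mac and not those of MHC-IIlo Mac.

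The other C3 probe, with 10 spots per array, gave the same order of monocytes above macrophages and a wider gap. Its mean over spots was 3.12, 1.62, 1.76 and 1.01 in CCR2+ Mac and 4.36, 4.25, 4.49 and 3.97 in Ly6cHi Mono. It was 2.25, 0.85, 0.79 and 0.65 in MHC-IIHi Mac and 1.07, 0.64, 0.32 and 0.57 in MHC-IIlo Mac. Replicate 1 was the highest array of each macrophage group on this probe, by over 1 log2 unit in CCR2+ Mac and in MHC-IIHi Mac. On the 1-spot probe replicate 1 was highest in those groups too but lowest in MHC-IIlo Mac. Spots of the 10-spot probe differed within an array by an SD of 0.023 to 0.108, well below the SD between arrays, 0.22 in Ly6cHi Mono to 0.89 in CCR2+ Mac. Measured with this probe, C3 was lower than in monocytes by 2.39 in CCR2+ Mac (log2, adjusted p = 0.000565), by 3.14 in MHC-IIHi Mac (adjusted p = 3.75e-05) and by 3.62 in MHC-IIlo Mac (adjusted p = 8.36e-06). The probes differed most for MHC-IIlo Mac, whose log2 difference from monocytes was -2.44 on one and -3.62 on the other. For CCR2+ Mac over MHC-IIlo Mac they gave 0.76 and 1.23, and neither passed (adjusted p = 0.203 and 0.166).

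**Figure D2:**
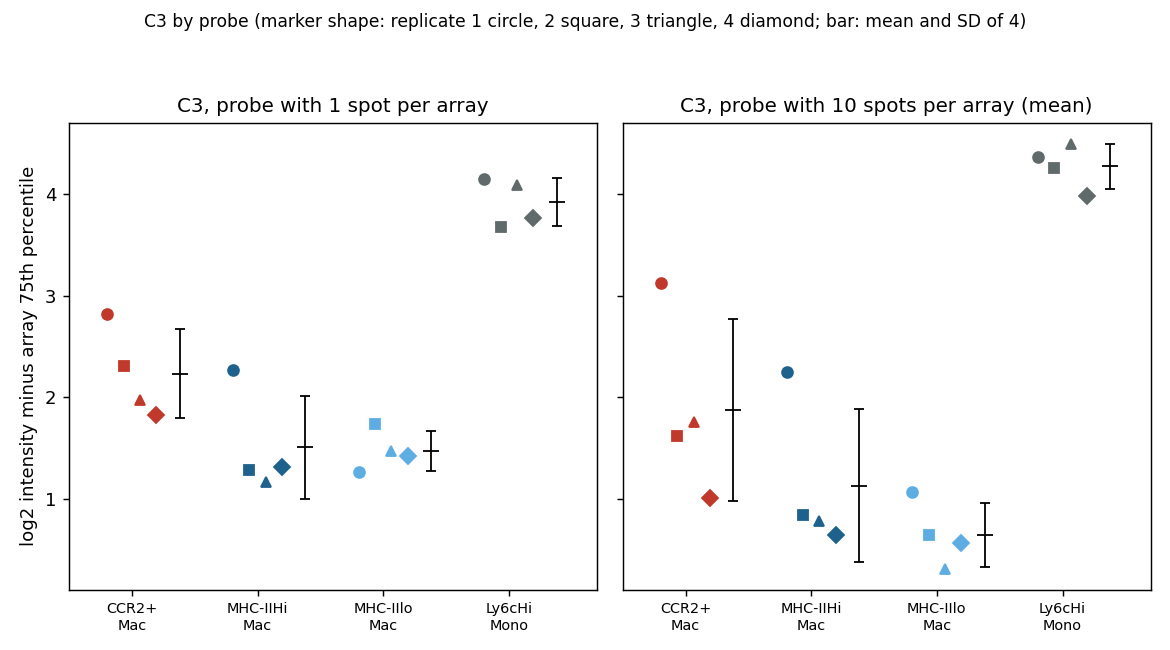
C3 on each array by probe, as log2 intensity minus the array's 75th percentile; marker shapes give the replicate and bars the mean and SD of 4 arrays. Both probes place all Ly6cHi Mono arrays, at 3.68 to 4.15 and 3.97 to 4.49, above all macrophage arrays, and replicate 1 is the highest CCR2+ Mac and MHC-IIHi Mac array on both.

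The alternative pathway genes Cfb and Cfp had the smallest differences of the 9 members between monocytes and both CCR2-negative groups. Cfb, a paralog and neighbour of C2, encodes the protease of the alternative C3 convertase. It was at 1.96, 1.24, 1.56 and 1.12 in CCR2+ Mac, and at -0.23, 0.98, 0.05 and 0.21 in Ly6cHi Mono. The levels were 1.88, 0.96, 0.48 and 0.25 in MHC-IIHi Mac and 1.92, 1.18, 1.29 and 0.99 in MHC-IIlo Mac. The macrophage groups overlapped one another, with replicate 1 highest in each, and of these MHC-IIHi Mac overlapped monocytes; the lowest MHC-IIlo Mac array lay barely above the highest monocyte array. Cfb was higher than in monocytes by 1.22 in CCR2+ Mac (SE 0.35, adjusted p = 0.0223) and by 1.09 in MHC-IIlo Mac (SE 0.35, adjusted p = 0.038), and its 0.64 in MHC-IIHi Mac did not pass (adjusted p = 0.253). With arrays scaled to their median, the calls of CCR2+ Mac (adjusted p = 0.0595) and MHC-IIlo Mac (0.105) were lost. The call of CCR2+ Mac was also lost without CCR2+ Mac replicate 1 or 3 or monocyte replicate 1 or 3 (adjusted p 0.0519 to 0.0718), and that of MHC-IIlo Mac without MHC-IIlo Mac replicate 1, 2 or 3 or monocyte replicate 1, 3 or 4 (0.0596 to 0.113).

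Cfp encodes properdin, which stabilises the alternative convertase. It was high in all groups, with processed signals of 13000 to 63500 on the 16 arrays. Levels were 4.95, 4.93, 4.98 and 4.78 in CCR2+ Mac and 4.75, 3.77, 4.04 and 4.21 in Ly6cHi Mono. They were 5.07, 5.04, 5.15 and 4.40 in MHC-IIHi Mac and 5.46, 5.30, 5.62 and 5.33 in MHC-IIlo Mac. All MHC-IIlo Mac arrays lay above every array of the other groups; monocytes overlapped MHC-IIHi Mac but not CCR2+ Mac. Against monocytes Cfp was higher by 1.24 in MHC-IIlo Mac (SE 0.22, adjusted p = 0.000647), 0.73 in MHC-IIHi Mac (adjusted p = 0.0264) and 0.72 in CCR2+ Mac (adjusted p = 0.0286). The excess of MHC-IIlo Mac over MHC-IIHi Mac, 0.51, and over CCR2+ Mac, 0.52, did not pass (adjusted p = 1 and 0.341). Median scaling ended the calls of CCR2+ Mac and MHC-IIHi Mac against monocytes (adjusted p = 0.113 and 0.151), as did a fit of the 2 groups alone (0.0645 and 0.112). The CCR2+ Mac call was also lost without its replicate 1, 2 or 3 or monocyte replicate 2, 3 or 4 (adjusted p 0.0512 to 0.0914), and the MHC-IIHi Mac call without its replicate 1, 2 or 3 or monocyte replicate 2 or 3 (0.0644 to 0.087).

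C6, which joins C5b in the terminal pathway, had the largest difference of the 9 members between CCR2+ Mac and MHC-IIHi Mac. It was at -2.45, -3.29, -2.52 and -3.92 in CCR2+ Mac, where 3 of 4 arrays were well above background, and at -4.93, -2.77, -4.72 and -3.41 in Ly6cHi Mono, where 1 of 4 was. It stood at 1.77, 0.57, 0.66 and 0.49 in MHC-IIHi Mac and at 1.55, 0.24, 0.72 and 0.05 in MHC-IIlo Mac, all well above background. Each CCR2-negative array was above each CCR2+ Mac and monocyte array, while CCR2+ Mac and monocytes overlapped. C6 was 15.1-fold lower in CCR2+ Mac than in MHC-IIHi Mac (log2 difference -3.92, SE 0.50, adjusted p = 0.000934) and 12.9-fold lower than in MHC-IIlo Mac (-3.68, SE 0.50, adjusted p = 0.0005). Since 3 of 4 monocyte arrays did not have C6 well above background, its excess over monocytes is given as a bound, with each such array set at the higher of its own value and the lowest level well above background on that array. C6 was at least 14.5-fold higher than in monocytes in MHC-IIHi Mac (adjusted p = 3.95e-06 on the measured difference of 4.83) and at least 12.3-fold higher in MHC-IIlo Mac (adjusted p = 6.26e-06 on 4.60). The 0.91 between CCR2+ Mac and monocytes did not pass (adjusted p = 0.229), and it turned to -0.22 with normexp background correction. Of the other pore genes, C7, C8a and C8g were tested and passed in none of the 6 comparisons, and C8b and C9 were dropped by the filter on dim probes.

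Of the receptors, C3ar1 and C5ar1, which bind the C3a and C5a peptides, were higher in macrophages than in monocytes, with no call between macrophage groups. C3ar1 was at 4.70, 4.76, 4.77 and 4.49 in CCR2+ Mac and at -0.14, -0.80, -0.66 and -0.30 in Ly6cHi Mono. It was at 5.02, 4.90, 4.79 and 4.75 in MHC-IIHi Mac and at 5.14, 4.80, 4.71 and 5.04 in MHC-IIlo Mac. The 12 macrophage arrays overlapped and lay far above the 4 monocyte arrays. The log2 difference from monocytes was 5.16 in CCR2+ Mac (35.7-fold, SE 0.18, adjusted p = 9.06e-11), 5.34 in MHC-IIHi Mac (40.6-fold, adjusted p = 3.06e-11) and 5.40 in MHC-IIlo Mac (42.1-fold, adjusted p = 2.01e-11). Between macrophage groups it was -0.24 to -0.05, with adjusted p from 0.725 to 1.

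C5ar1 was at 0.93, 0.46, 0.86 and 0.45 in CCR2+ Mac and at -3.93, -2.91, -1.87 and -2.66 in Ly6cHi Mono, where 3 of 4 arrays were well above background. It was at 1.38, 1.16, 1.07 and 0.67 in MHC-IIHi Mac and at 2.08, 1.20, 1.75 and 0.83 in MHC-IIlo Mac. Monocytes were lowest without overlap, and the macrophage groups all overlapped one another. C5ar1 exceeded monocytes by 3.51 in CCR2+ Mac (11.4-fold, SE 0.37, adjusted p = 5.84e-06), 3.91 in MHC-IIHi Mac (adjusted p = 1.18e-06) and 4.31 in MHC-IIlo Mac (adjusted p = 3.8e-07). Bounded as for C6, these excesses were at least 9.49-fold, 12.5-fold and 16.4-fold. It was lower in CCR2+ Mac than in MHC-IIlo Mac on 4 of 4 slides, by 0.79 on average, and did not pass (adjusted p = 0.417). Its neighbour and paralog C5ar2, another C5a receptor, named here after its values were seen, was higher than in monocytes by 1.21 in MHC-IIHi Mac (adjusted p = 0.00137) and 1.09 in MHC-IIlo Mac (adjusted p = 0.00283). In CCR2+ Mac its difference of 0.67 did not pass (adjusted p = 0.053), and the arrays overlapped those of monocytes.

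Vsig4, a macrophage receptor of the immunoglobulin superfamily for C3 fragments, was the member whose arrays did not overlap between any 2 macrophage groups. It was at -4.04, -2.82, -1.54 and -2.37 in CCR2+ Mac, with 3 of 4 arrays well above background, and at -5.14, -5.43, -5.34 and -5.52 in Ly6cHi Mono, with 0 of 4. It was at -0.47, -0.04, 0.34 and -1.23 in MHC-IIHi Mac and at 1.19, 1.29, 2.16 and 0.40 in MHC-IIlo Mac. The macrophage groups were separate, in the order CCR2+ Mac, MHC-IIHi Mac, MHC-IIlo Mac. CCR2+ Mac replicate 1 and all monocyte arrays were not well above background, so the order of these values was not measured. It was 15.5-fold lower in CCR2+ Mac than in MHC-IIlo Mac (log2 difference -3.95, SE 0.47, adjusted p = 0.000176) and 5.06-fold lower than in MHC-IIHi Mac (-2.34, SE 0.47, adjusted p = 0.0222). Bounded as for C6, Vsig4 was at least 14.6-fold and at least 4.77-fold lower. The call against MHC-IIHi Mac was lost with normexp background correction (adjusted p = 0.0728), with a fit of the 2 groups alone (0.098), and without CCR2+ Mac replicate 1 or 2 or MHC-IIHi Mac replicate 1, 2 or 3 (0.051 to 0.0884). MHC-IIHi Mac was below MHC-IIlo Mac by 1.61 on average and by 1.34 to 1.82 on each of 4 slides, with an adjusted p of 0.572.

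Since no array of Ly6cHi Mono had Vsig4 well above background, its macrophage excess is a bound. The bound sets the group mean against, on each monocyte array, the higher of the spot's own value and the lowest level well above background. Vsig4 was at least 20.3-fold higher in MHC-IIlo Mac (adjusted p = 5.89e-08), at least 6.63-fold higher in MHC-IIHi Mac (adjusted p = 1.36e-06) and at least 1.31-fold higher in CCR2+ Mac (adjusted p = 0.000796). The CCR2+ Mac call against monocytes was lost with normexp background correction, where the log2 difference was 0.83 (adjusted p = 0.188).

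**Figure D3:**
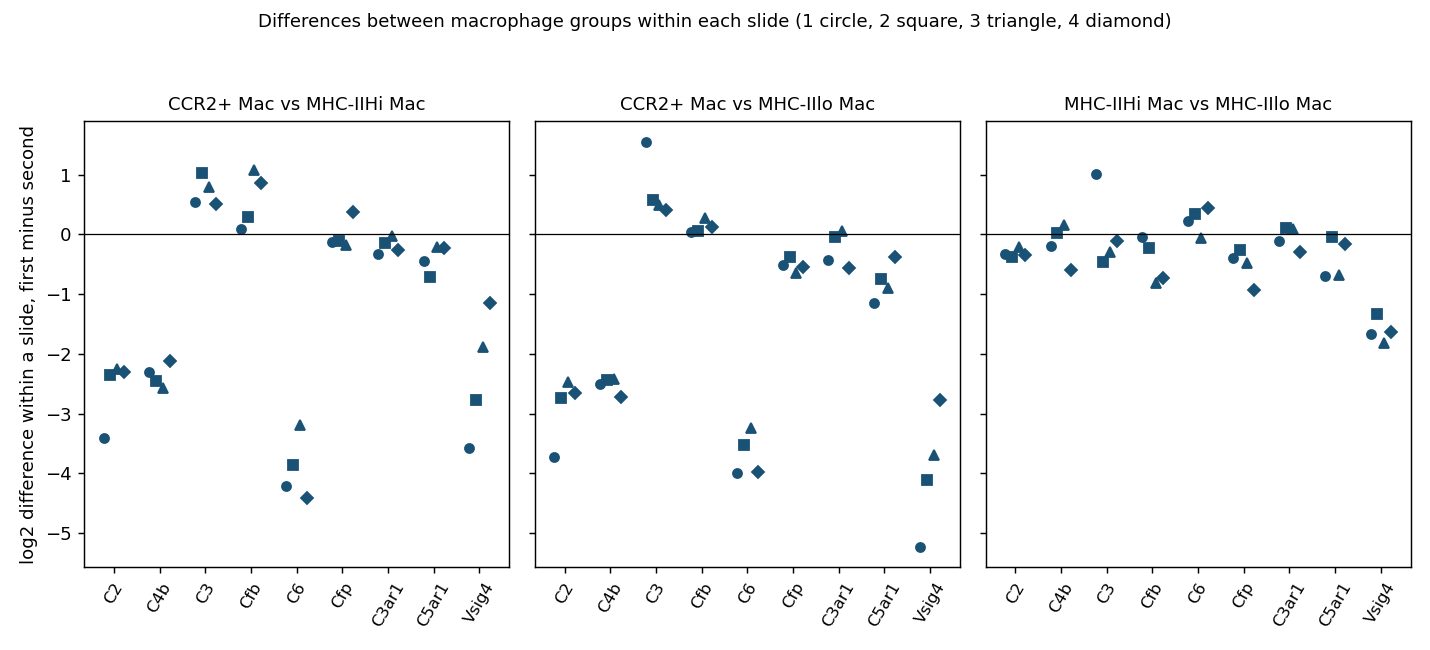
Log2 difference of each of the 9 genes between macrophage groups within each of the 4 slides, first group minus second; marker shapes give the slide. C2, C4b, C6 and Vsig4 are below 0 on every slide in both comparisons of CCR2+ Mac, and Vsig4 is between -1.82 and -1.34 for MHC-IIHi Mac against MHC-IIlo Mac.

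Read against blood monocytes, all 3 heart groups had more RNA of most members and less of C3. CCR2+ Mac had 7 members higher and 1 lower, where 9.88% of features were called higher, 12.1% lower and 21.9% in all. MHC-IIHi Mac likewise had 7 higher and 1 lower, against 10.1% higher, 11.5% lower and 21.6% in all. MHC-IIlo Mac had 8 higher and 1 lower, against 10% higher, 11.4% lower and 21.5% in all. Arrays did not overlap for 8, 7 and 9 members, against 25.2%, 22.7% and 23.1% of features. The exceptions among the calls were C6 in CCR2+ Mac and Cfb in MHC-IIHi Mac, which did not pass. The median member difference was 1.62, 4.20 and 4.52, against -0.10, -0.05 and -0.06 over all features, and the 3 comparisons share the monocyte arrays. Monocytes came from blood and macrophages from digested heart, so tissue, digestion and cell type cannot be told apart. The monocyte arrays also had lower 75th percentiles of signal, 819 to 996, against 941 to 1670, and lower cardiomyocyte and fibroblast gene sums. Of 8 cardiomyocyte genes, 7 in CCR2+ Mac and 8 in each CCR2-negative group were well above background on every array. In Ly6cHi Mono 4 of them were (Myh6, Tnni3, Myl2 and Nppa), while Tnnt2, Actc1 and Pln were so on no monocyte array. Among fibroblast genes Pdgfra was above background on no array and Dcn on all macrophage but no monocyte arrays. Col1a2 and Col3a1 were above background on every array of all 4 groups. Their part in these differences was not tested.

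**Figure D4:**
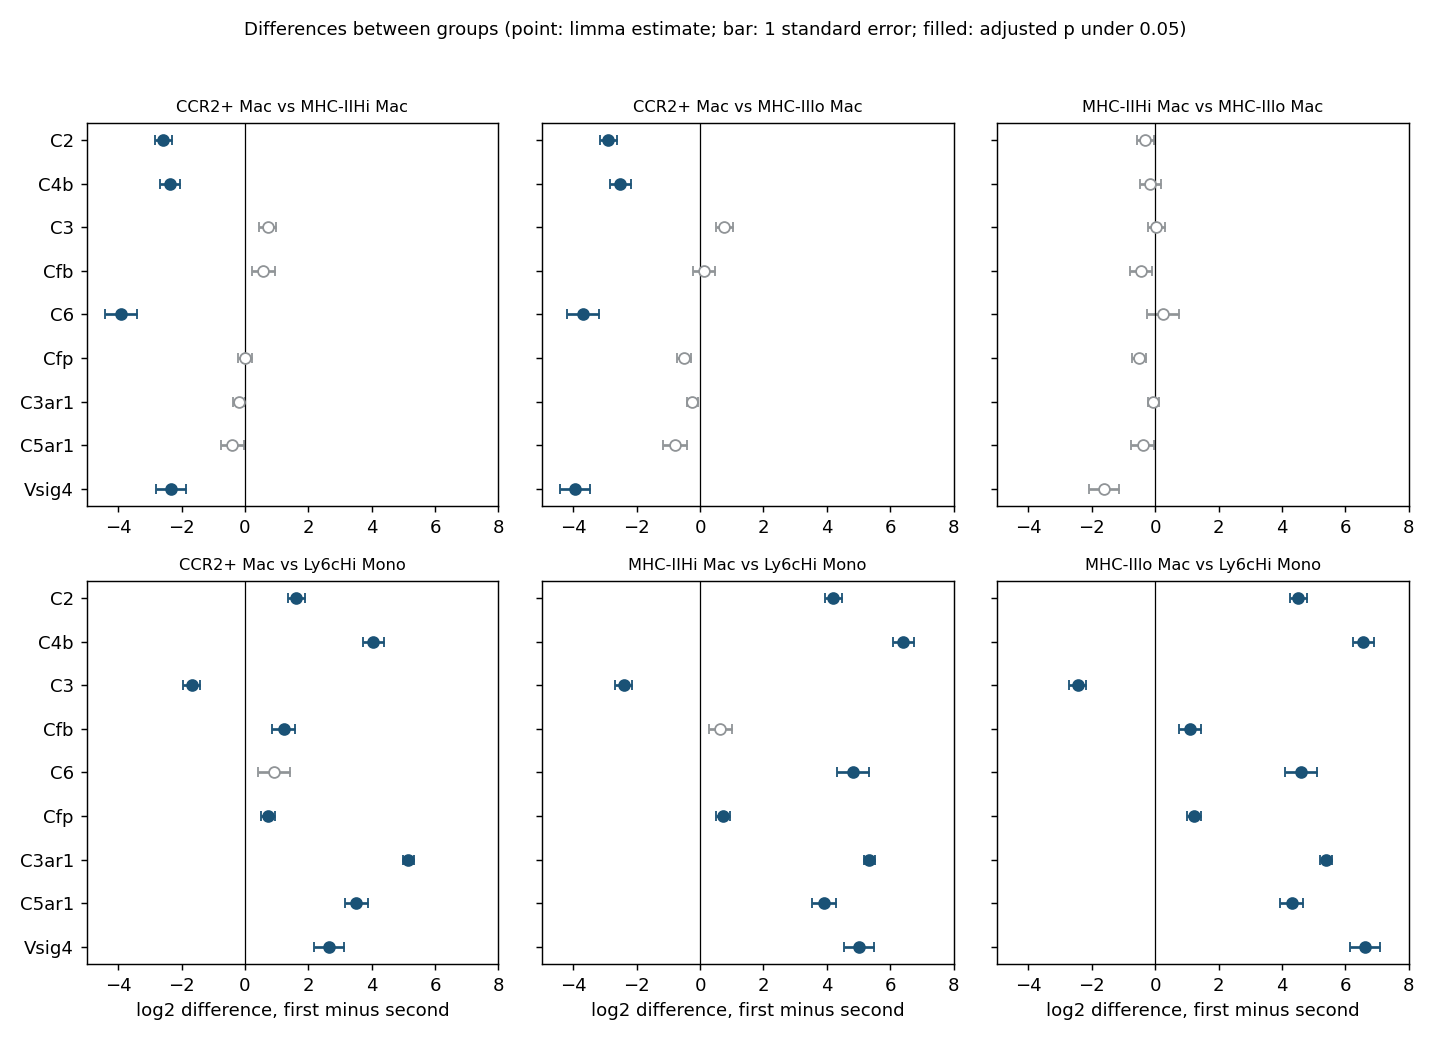
Log2 difference of the 9 genes in the 6 comparisons, first group minus second, with 1 standard error; filled points have a limma adjusted p under 0.05. Between CCR2+ Mac and each CCR2-negative group C2, C4b, C6 and Vsig4 are filled and below 0, no point is filled between MHC-IIHi Mac and MHC-IIlo Mac, and C3 is the 1 gene below 0 against monocytes.

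Sums over marker genes of other cells were also set side by side between the macrophage groups. Over 6 dendritic cell genes the summed level was 0.45 to 1.67 in CCR2+ Mac, -0.06 to 0.54 in MHC-IIHi Mac and -0.23 to 0.89 in MHC-IIlo Mac. In Ly6cHi Mono it was 1.34 to 1.83. Of these genes Dpp4 and Cd209a were called higher in CCR2+ Mac than in both other macrophage groups. Their mean levels, -2.21 and -0.99 in CCR2+ Mac, were higher still in Ly6cHi Mono, at -0.21 and -0.09. The other 3 genes tested passed in neither comparison. Among them the Zbtb46 mean was lower in CCR2+ Mac (-0.72) than in MHC-IIHi Mac (-0.36) and MHC-IIlo Mac (-0.41). Xcr1 was well above background on no macrophage array. Over 4 B cell genes the sum was 2.23 to 2.56 in CCR2+ Mac, 2.09 to 2.82 in MHC-IIHi Mac, 1.02 to 1.86 in MHC-IIlo Mac and 1.80 to 2.57 in Ly6cHi Mono, so that CCR2+ Mac and MHC-IIHi Mac lay above MHC-IIlo Mac without overlap. Of these genes Cd79b was called higher in CCR2+ Mac than in MHC-IIlo Mac, by 0.99 (adjusted p = 0.0489), and Ms4a1 was well above background on no array. The fibroblast sum was 2.13 to 3.45 in CCR2+ Mac, 2.34 to 3.32 in MHC-IIHi Mac and 2.97 to 3.43 in MHC-IIlo Mac, and no gene of the fibroblast or cardiomyocyte list was called between macrophage groups. Their part in the lower C2, C4b, C6 and Vsig4 was not tested.

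Paralogs were set side by side by their differences. C2 was lower in CCR2+ Mac than in MHC-IIHi Mac by 2.58 (called), while the difference of its paralog Cfb was 0.58 (adjusted p = 0.688). C4b had a difference of -2.37 in that comparison and C3 one of 0.72. Against monocytes, MHC-IIlo Mac had 6.57 for C4b and -2.44 for C3, both called. C3ar1 and C5ar1 were called higher than in monocytes in each of the 3 macrophage groups. These are values side by side, and no difference between paralogs was tested.

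The wider complement list held 46 further genes, of which 45 were on the array and 33 were tested. In CCR2+ Mac 0 of 33 were higher and 3 lower than in MHC-IIHi Mac, where 0.638% of all features were called higher and 0.624% lower. Against MHC-IIlo Mac 1 of 33 was higher and 3 were lower, beside 1.52% and 1.29% of all features. The list medians were -0.13 and -0.16, and those of all features -0.03 and -0.04. The 3 lower genes were the same in both, and Fcna and Colec12 were among them. Fcna, a ficolin that starts the lectin pathway, differed by -2.46 (adjusted p = 0.00114) and -3.97 (adjusted p = 6.48e-06). Colec12, a scavenger receptor of the collectin family, was well above background on 0 of 4 CCR2+ Mac, 1 of 4 MHC-IIHi Mac and 4 of 4 MHC-IIlo Mac arrays. It was at least 4.10-fold lower in CCR2+ Mac than in MHC-IIlo Mac (adjusted p = 1.54e-06 on the measured difference of -4.15). Its call against MHC-IIHi Mac (adjusted p = 0.01) rests on values at background level in both groups, and no bound on that difference could be given. Itgax, which encodes CD11c, a subunit of a C3-fragment receptor, was higher in CCR2+ Mac than in MHC-IIlo Mac by 3.83 (adjusted p = 0.000758), but CD11c was part of the gates. Between MHC-IIHi Mac and MHC-IIlo Mac the list had 0 of 33 higher and 1 lower (0.0543% and 0.0181% of all features). The lower gene was Colec12, by at least 3.15-fold (adjusted p = 0.0119 on the measured difference of -2.48).

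Against monocytes the same list had 12 of 33 higher and 3 lower in CCR2+ Mac, beside 9.88% and 12.1% of all features. It had 13 higher and 2 lower in MHC-IIHi Mac (10.1% and 11.5%) and 14 higher and 4 lower in MHC-IIlo Mac (10% and 11.4%). The lower counts were near or below those shares. In MHC-IIHi Mac the higher count includes Colec12, above background there on 1 of 4 arrays and on no monocyte array. C1qa, a chain of the C1q recognition molecule, was higher by 7.94, 8.44 and 8.57 in CCR2+ Mac, MHC-IIHi Mac and MHC-IIlo Mac, and C1qb by 6.49, 6.73 and 6.90. C1qc was not above background on any monocyte array and was at least 186-fold, 238-fold and 266-fold higher. Fcna was at least 8.07-fold, 44.3-fold and 126-fold higher, again with 0 of 4 monocyte arrays above background. The protease gene C1ra was at least 1.77-fold higher in CCR2+ Mac (adjusted p = 0.00231), at least 3.06-fold in MHC-IIHi Mac (adjusted p = 0.000138) and at least 3.47-fold in MHC-IIlo Mac (adjusted p = 7.36e-05). For C1ra, and for Colec12 and Cpn2 below, each adjusted p is that of the measured difference, and the bounds were not tested. Colec12 was at least 2.41-fold higher in MHC-IIlo Mac (adjusted p = 4.64e-07). Cpn2, a subunit of the carboxypeptidase that inactivates C3a and C5a, was well above background on 2 of 4 monocyte arrays, and was at least 2.75-fold higher in CCR2+ Mac (adjusted p = 0.00584) and at least 2.66-fold higher in MHC-IIlo Mac (adjusted p = 0.00597). In MHC-IIHi Mac it did not pass (adjusted p = 0.0616). Fcnb, a ficolin of myeloid precursors, was lower in all 3 macrophage groups, with log2 differences of -3.00 in CCR2+ Mac (adjusted p = 0.00194), -1.95 in MHC-IIHi Mac (adjusted p = 0.0288) and -2.72 in MHC-IIlo Mac (adjusted p = 0.00347). It was well above background on 3 of 4 CCR2+ Mac and 3 of 4 MHC-IIlo Mac arrays, and was at least 7.55-fold and 4.94-fold lower there. Its MHC-IIHi Mac arrays overlapped those of monocytes. The remaining components, C7, C8a, C8g, Hc and Cfd among those tested, gave 0 calls of 5 in each of the 6 comparisons.

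The genes nearest to each member were taken as the 3 with the smallest root mean square difference from it over the 16 arrays, after each gene was centred on its own mean. For C2 they were Rab34, Gm4788 and Epor, at 0.54 to 0.55 log2 units, where C2 itself varied by 1.90 around its mean. C4b had Chp2 (0.34), the haemoglobin scavenger receptor Cd163 (0.36) and Pmp22 (0.49), against 2.69 of its own. For C6 they were the member C2 (0.68), Timd4 (0.91), which encodes a phosphatidylserine receptor, and Afap1l1 (0.94), against 2.26. Vsig4 had Ednrb (0.64), Lyve1 (0.64), a hyaluronan receptor, and Ccl24 (0.68), against 2.57. For C3 the list was Krt80 (0.29), Mbp (0.31) and Cerkl (0.32), against 1.04.

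The genes nearest to C3ar1 were Mt1, Fosb and Jun, at 0.32 to 0.36 against a spread of 2.30. C5ar1 had Septin8 (0.36), Cd300lh (0.39) and Cd300ld4 (0.39), against 1.78. For Cfb, Ahcyl1, Egln1 and Nagk were at 0.33 to 0.34, against 0.66 of its own, and for Cfp, Pisd-ps3 (0.21), Scpep1 (0.23) and Tcf4 (0.24) compare with 0.50. The 16 points share the 4 groups and the 4 slides.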

How the data were processed

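RNA of 4 sorted populations was measured on 16 arrays of 4 slides, 1 array of each group per slide. The deposited intensity values are Cy5 processed signals in arbitrary units, which the authors obtained with Agilent Feature Extraction (version 11.5.1.1 in the submitters' processing notes); Partek is named there without a step. The deposited table of log2 values was not used, since 0 of its 16 columns matched the array of the same label and 12 matched an array of another group (correlations of at least 0.995 with the best match, at most 0.969 under the same label). The headings of the text columns did not match their contents in any of the 16 files, so symbol, probe name and sequence were recognised by content.

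The log2 signal was taken and each array's 75th percentile over all spots other than controls subtracted. Marked outlier spots were then left out and the spots of a probe averaged. Of 39429 probes, 110 were incomplete, and 27643 were kept because 4 or more arrays read them well above background; 27508 probes were named through RefSeq accessions. The brightest kept probe stood for a gene. limma 3.58.1 in R 4.3.3 fitted 1 mean per group to all 16 arrays (lmFit, eBayes, 12 residual degrees of freedom), with Benjamini-Hochberg adjustment over 22116 features in each of 6 comparisons and a threshold of 0.05. The pipeline was tested on simulated data. The number of arrays limits the precision.

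Replicate numbers coincide with slides. Same-numbered arrays deviated together in 24 of 24 pairs of groups, with correlations of 0.139 to 0.64. The slide as a block, normexp background correction (offset 50), quantile and median scaling, other filters, the mean of all probes, fits of the 2 groups compared, and each array left out were tried as alternatives, and the other C3 probe was added after seeing the data. Each group always sat at the same slide position, which cannot be told apart from the group. The 9 members, the complement list and the marker lists were chosen with earlier results of these data known. Named beyond the members are at most 6 called genes of the complement list with the largest differences per comparison, the 3 nearest genes of each member, gate genes and marker genes. C5ar2 lies outside that rule and was named after its values were seen. The values of 1 called gene of the complement list are not reported here. The probes were not placed on a genome; the headers name mm9, and promoter coordinates are those of RefSeq, GRCm38.p6.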

Additional observations from a re-analysis of the deposited data

Results flagged for a closer look

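In MHC-IIHi Mac 1 array stood apart from the other 3 for 3 of the members, by Dixon's test at the 95% level, which chance alone would give in about 1 of 20 groups. The test was run on each of the 10 member probes in each of the 4 groups, so some such arrays arise by chance. For C3 this was replicate 1, at 2.26789 on the 1-spot probe and 2.25105 on the 10-spot probe, where the other 3 arrays were at 1.17 to 1.32 and 0.65 to 0.85. For C6 it was also replicate 1, at 1.77052 against 0.49 to 0.66. For Cfp it was replicate 4, at 4.40249 against 5.04 to 5.15.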

How the results depend on the processing

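The 33 called member differences kept their direction under every alternative run. They lost significance in 9 of 267 alternatives and 26 of 264 fits that left out 1 array, all of them for Vsig4, Cfb or Cfp. With the slide as a replicate block the calls of members did not change, while more genes overall were called: 555 in place of 279 (CCR2+ Mac against MHC-IIHi Mac), 1278 in place of 622 (CCR2+ Mac against MHC-IIlo Mac), 77 in place of 16 (MHC-IIHi Mac against MHC-IIlo Mac), 7470 in place of 4851 (CCR2+ Mac against Ly6cHi Mono) and 7126 in place of 4748 (MHC-IIlo Mac against Ly6cHi Mono). Median scaling called 173, 387 and 8 genes in the first 3 of these, and fits of the 2 groups alone called 338 for the second and 0 for the third (16 in the fit of all groups). Without the filter on dim probes 8663 were called for CCR2+ Mac against Ly6cHi Mono. Leaving out 1 array gave 155 to 223 for the first and 0 to 18 for the third. It left 3 to 4 called members for the first and 6 to 8 for CCR2+ Mac against Ly6cHi Mono. Differences that were not called changed sign as follows. Cfp, CCR2+ Mac minus MHC-IIHi Mac (-0.01), was 0.14 with normexp, 0.11 with quantile normalization, 0.051 with median scaling and -0.18 to 0.070 without 1 array. Without 1 array, Cfb (CCR2+ Mac minus MHC-IIlo Mac) was -0.039 to 0.32. Between MHC-IIHi Mac and MHC-IIlo Mac, C3 was then -0.22 to 0.15, C6 -0.063 to 0.54, C4b -0.33 to 0.12 and C3ar1 -0.13 to 0.017. C6, CCR2+ Mac minus Ly6cHi Mono, was -0.22 with normexp; the cause was not tested. The median over all features against monocytes moved to between -0.20 and -0.25 with normexp and -0.14 and -0.16 with median scaling. Levels near background (Vsig4 in monocytes, C6 in CCR2+ Mac and monocytes) limit what the folds show.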
